A study of Mus musculus with 12 samples.

Results

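Constitutively bivalent regions were stretches of the mouse genome at which 2 histone marks, H3K4me3 and H3K27me3 (histone H3 with lysine 4 or lysine 27 trimethylated), were both listed in every condition of the study. They were found by joining overlapping H3K4me3 peaks over the 4 H3K4me3 lists. A joined region was kept when it held a peak of all 4 H3K4me3 lists and overlapped, by at least 1 bp, a peak of all 4 H3K27me3 lists. Of 16628 joined regions, 1268 (7.63%) met this rule, which is 9.67% of the 13107 regions with H3K4me3 in all 4 lists. The regions were chosen by the presence of peaks in the 8 lists, so their number and the overlap of the marks are descriptions.

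The peaks came from chromatin immunoprecipitation with sequencing (ChIP-seq) of primary mouse embryonic fibroblasts (MEFs) on a hybrid 129/B6 background. Cells were wild type (lincRNA-p21+/+, WT) or lincRNA-p21 knockout (lincRNA-p21-/-, KO), and each genotype was mock treated or given doxorubicin for 24 h at a labelled dose of 0.5 mM, whose unit was not checked and may be a slip for micromolar. LincRNA-p21 belongs to the long noncoding RNAs that p53 switches on, and doxorubicin damages DNA. How the knockout allele was made, and how many embryos a culture held, are not given in the sources used here. Values are given below in the order WT mock, WT doxorubicin, KO mock and KO doxorubicin. There was 1 library per mark and condition, so no difference between conditions has a replicate check and none was tested. Read depth is unknown, because the lists hold positions and scores and no read counts. Whether fibroblast genes carried H3K4me3 and genes of other lineages did not was not analysed here, because no mm9 gene annotation was used.

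H3K4me3 is laid down at promoters that are active or poised, and unmethylated CpG islands attract the enzymes that write it. H3K27me3 is written by Polycomb repressive complex 2 and accompanies repression. Promoters of developmental regulators can carry both marks, a state called bivalent, first described in embryonic stem cells and also found in differentiated cells. In bulk chromatin, overlap of the 2 marks cannot be told apart from a mixture of cells or alleles that each carry 1 of them.

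The edge of the rule was sharp in base pairs and included thin overlaps. The region with the smallest overlap, chr12:99812157-99813934 on mm9, lay wholly under H3K27me3 in 3 conditions and met a WT doxorubicin peak at 1 bp. At chr11:102307415-102309581, 1 of the next pair, the overlaps were 5, 398, 348 and 281 bp. Just outside, chr8:14089112-14090955 missed a KO mock H3K27me3 peak by 9 bp, and chr9:54348420-54350445 missed a WT mock peak by 10 bp. In all, 24 bivalent regions had an overlap under 100 bp in at least 1 list. A further 233 regions had H3K4me3 in all 4 lists and H3K27me3 in 3, and at 91 of these the missing list had a peak no more than 1 kb away. The WT doxorubicin list was the missing one at 105 of the 233. In the other direction, 307 regions had H3K27me3 in all 4 lists and H3K4me3 in 3. The missing H3K4me3 list was KO doxorubicin at 173 of them, WT mock at 11, WT doxorubicin at 0 and KO mock at the rest. Regions left out for want of 1 H3K4me3 list thus lacked it mostly in KO cells, and the widths below describe regions at which it was listed throughout.

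H3K4me3 at bivalent regions formed 1 compact peak, shorter in both KO libraries than in both WT libraries. The joined regions were 743 to 7075 bp long with a median of 1789 bp, against a median of 2416 bp for the 11159 regions with H3K4me3 in all 4 lists and no H3K27me3 in any list (called H3K27me3-free below). The median length covered by H3K4me3 peaks was 1668.5, 1629, 1247.5 and 1192.5 bp in the 4 conditions. At H3K27me3-free regions it was 2252, 2056, 1935 and 2048 bp, so that the KO doxorubicin library was close to the WT doxorubicin library there. A single H3K4me3 peak stood in every list at 1170 of the 1268 regions. A region held 2 or more H3K4me3 peaks at 25, 27, 52 and 56 of them in the 4 conditions.

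**Figure D1:**
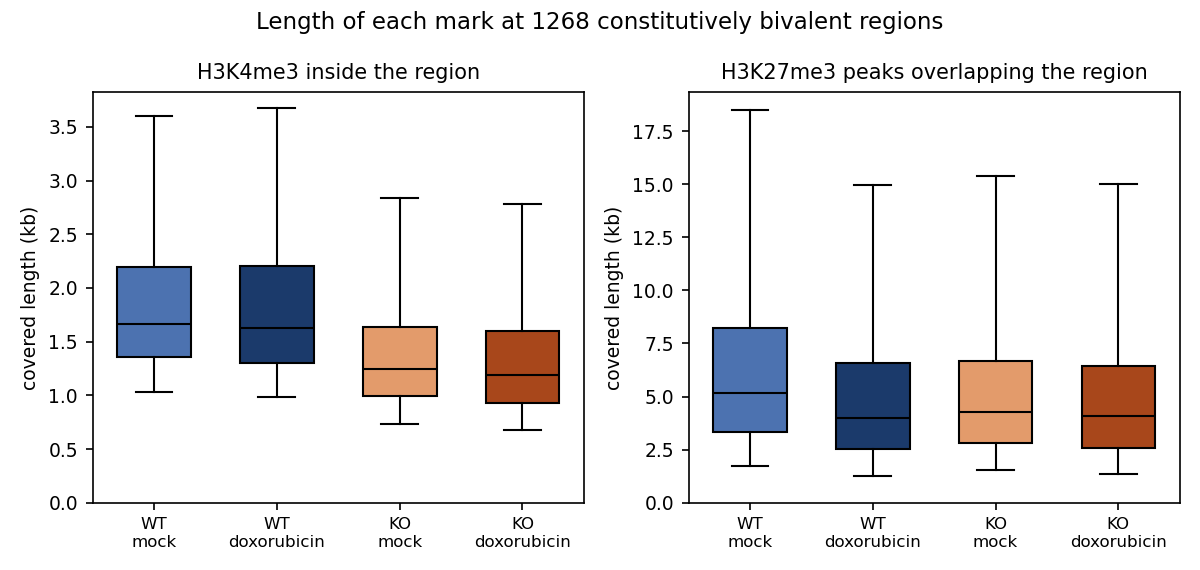
Length covered by H3K4me3 (left) and total length of the overlapping H3K27me3 peaks (right) in kb at the 1268 bivalent regions in each of the 4 conditions; boxes span the quartiles with the median as a line, and whiskers reach the 5th and 95th percentiles. The H3K4me3 medians are 1668.5 and 1629 bp in WT and 1247.5 and 1192.5 bp in KO, and the H3K27me3 median is longest in WT mock at 5160.5 bp.

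H3K27me3 reached well beyond H3K4me3 at most of these places. The H3K27me3 peaks that overlapped a bivalent region had median total lengths of 5160.5, 3970.5, 4260 and 4065.5 bp. Per region they were 3.06, 2.40, 3.25 and 3.29 times as long as the H3K4me3 (medians). The WT doxorubicin library had the lowest ratio, with the shortest H3K27me3 median and H3K4me3 near its WT mock length. The median share of the joined region that lay under H3K27me3 was 100%, 94.7%, 100% and 99.96%. In all 4 conditions, 424 regions (33.4%) were wholly covered, while 75 were covered at under 50% of their length in every condition.

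H3K4me3 was often an island inside a longer H3K27me3 peak, least often in WT doxorubicin. It lay wholly inside 1 H3K27me3 peak at 756 (59.6%), 594 (46.8%), 775 (61.1%) and 685 (54.02%) regions. With H3K27me3 peaks joined within 3 kb, the counts were 962, 918, 984 and 969. WT doxorubicin stayed the lowest, and the counts lay closer together. As deposited, H3K4me3 crossed 1 edge of a single H3K27me3 peak at 364, 437, 322 and 359 regions, and it held a whole H3K27me3 peak at 8, 24, 6 and 7. The remaining 140, 213, 165 and 217 regions met several H3K27me3 peaks, and were more frequent in both doxorubicin libraries. Where H3K4me3 was enclosed, its midpoint stood at a median of 38.6%, 37.6%, 37.2% and 38.9% of the peak's length from the nearer edge, where 50% would be the centre and enclosure itself keeps the midpoint off the edge. The shorter flank of H3K27me3 beside it measured 1472, 1032, 1193 and 1231 bp (medians).

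Joined over the 4 lists, 6335 H3K27me3 domains were present in every list, and 1259 of them (19.9%) held a bivalent region. Domains with a bivalent region had a median length of 6046 bp, and those without one 4315 bp. Domains over 10 kb made up 21.8% of the first kind and 9.73% of the second. One bivalent region per domain was the usual arrangement, at 1213 domains, and 46 domains held 2 or more. The fullest was chr6:52174659-52207621, a domain of 32963 bp with 5 bivalent regions. H3K27me3 covered 25770, 29827, 30628 and 31915 bp of it in the 4 conditions. The next was chr2:74491584-74539828 with 4 regions, of which 48054, 47355, 46486 and 48174 bp were covered. Both kept H3K27me3 over most of their length in the 4 libraries. Just 4 bivalent regions lay in no domain common to the 4 lists, since their H3K27me3 peaks did not join.

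The 2 marks ranked very differently at these places. The score is the authors' value for each peak, and a region's percentile is the place of its highest score within its own list. For H3K27me3 the median percentile was 89.2, 88.4, 90.3 and 90.4, and 827 regions were at or above the 75th percentile in all 4 H3K27me3 lists. For H3K4me3 it was 29.4, 42.3, 21.7 and 21.5, and 144 regions were under the 25th percentile in all 4 H3K4me3 lists. H3K27me3-free regions had H3K4me3 medians of 60.8, 63.3, 59.6 and 62.0. The rule asked for a peak in every list, which goes with higher ranks. Among the 6335 domains common to the 4 lists, those with a bivalent region had H3K27me3 medians of 73.6, 72.02, 76.2 and 75.6. Bivalent regions thus ranked above the middle for H3K27me3 and below it for H3K4me3. At or above the 75th percentile in all 8 lists were 7 regions, out of 16 that reached it in all 4 H3K4me3 lists. The opposite combination, H3K4me3 under the 25th and H3K27me3 at or above the 75th percentile throughout, was found at 87 of the 144. Such counts over all regions or domains are not given here, so those in this paragraph have no background. No relation between the marks is read from them. Across the 1268 regions, mean H3K4me3 percentile and mean H3K27me3 percentile were weakly and inversely related (Pearson's r = -0.17, Spearman's rho = -0.15), a description over regions that share the same libraries.

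**Figure D2:**
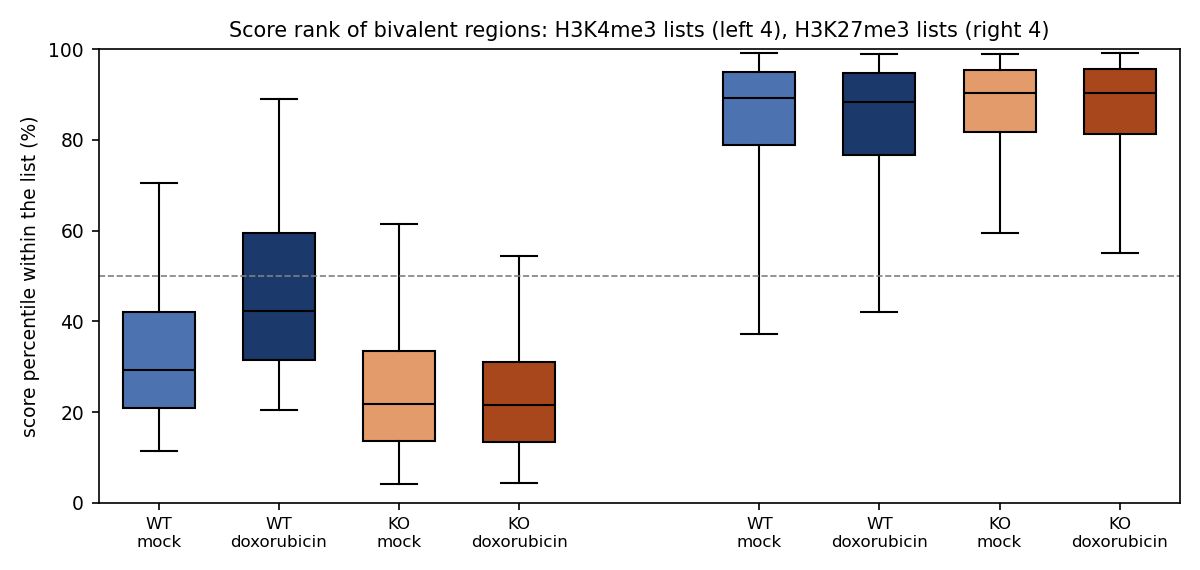
Percentile of each bivalent region's highest score within its own list, for the 4 H3K4me3 lists on the left and the 4 H3K27me3 lists on the right; boxes span the quartiles with the median as a line, whiskers reach the 5th and 95th percentiles, and the dashed line marks the middle of a list. H3K4me3 medians are 29.4, 42.3, 21.7 and 21.5, and H3K27me3 medians lie between 88.4 and 90.4.

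H3K4me3 at bivalent regions ranked highest in WT doxorubicin and lowest in KO doxorubicin cells. Ranks from lists of unequal length cannot be compared, so the 13107 regions common to the 4 H3K4me3 lists were ranked against each other in every condition. On that scale the median bivalent region stood at percentile 20.02, 28.3, 16.0 and 11.3, and the median H3K27me3-free region at 55.5, 54.0, 56.03 and 56.3. WT doxorubicin gave the highest of the 4 ranks at 943 bivalent regions (74.4%), against a background of 22.7% over all 13107. KO doxorubicin gave the lowest at 889 (70.1%), against 33.0%. WT mock was highest at 145 (11.4%), against 19.9%, KO mock at 133 (10.5%), against 28.0%, and KO doxorubicin at 47 (3.71%), against 29.4%. The lowest rank fell to WT mock at 126 (9.94%), against 19.6%, to WT doxorubicin at 44 (3.47%), against 27.8%, and to KO mock at 208 (16.4%), against 19.5%. The KO mock share of lowest ranks was near its background. Score levels depend on depth and enrichment and were not compared between lists. Values piled up at a score of 3100, which 35.4% of KO doxorubicin H3K4me3 peaks reached or passed, against 8.05 to 20.0% in the 3 other lists, and its part in these ranks was not tested.

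KO was compared with WT in each treatment. With 1 library per mark and condition, genotype cannot be told apart from culture or library. H3K4me3 at bivalent regions was narrower in the KO library than in the WT library under both treatments. The ratio of covered lengths, KO over WT, had a median of 0.772 in mock and 0.756 in doxorubicin-treated cells. At H3K27me3-free regions the medians were 0.865 and 1.007, and at the 680 regions with H3K27me3 in 1 to 3 lists they were 0.803 and 0.890. In mock cells 342 bivalent regions (26.97%) were narrower by at least 1.5-fold, against a background of 11.2%, and 1 was wider, against 0.244%. In doxorubicin-treated cells 402 (31.7%) were narrower, against 6.78%, and 2 were wider, against 2.16%. With each ratio divided by the median ratio of all 13107 regions, the narrower bivalent regions numbered 161 in mock (12.7%, against 4.36% of all regions) and 385 in doxorubicin-treated cells (30.4%, against 6.30%). The wider ones numbered 9 (0.710%, against 1.03%) and 2 (0.158%, against 2.38%). The mock count thus depended on this scaling, and the doxorubicin count hardly did.

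**Figure D3:**
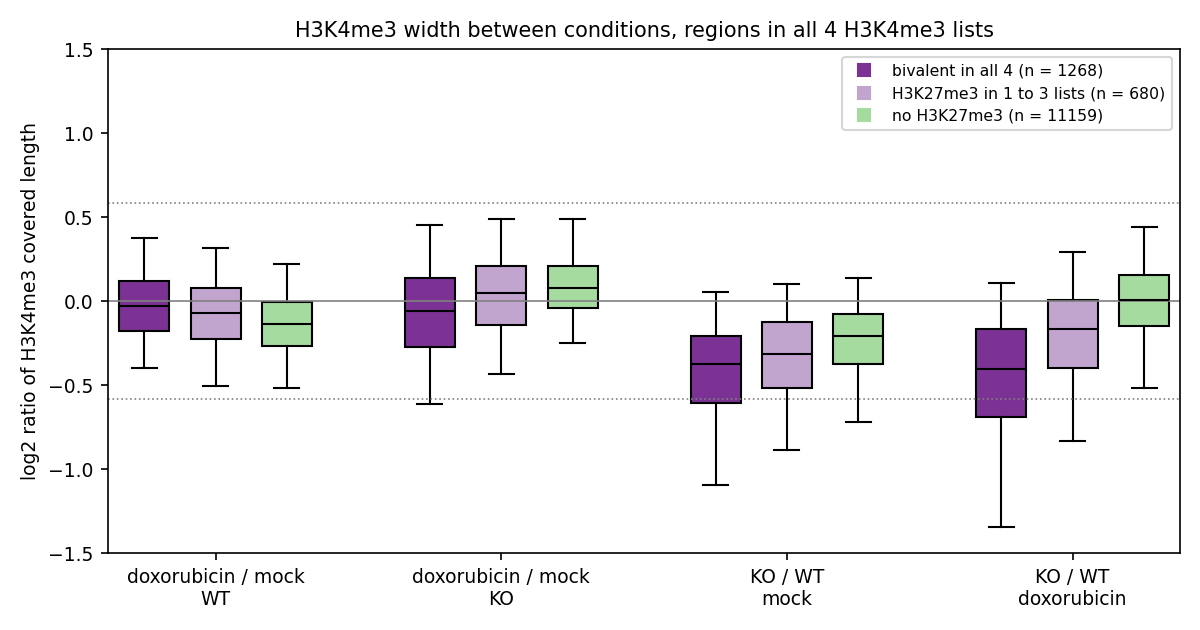
Log2 ratio of the length covered by H3K4me3 for the 4 comparisons, at bivalent regions, regions with H3K27me3 in 1 to 3 lists and H3K27me3-free regions; boxes span the quartiles with the median as a line, whiskers reach the 5th and 95th percentiles, and dotted lines mark 1.5-fold. For KO over WT in doxorubicin the median ratio is 0.756 at bivalent regions and 1.007 at H3K27me3-free regions.

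Because bivalent regions scored low for H3K4me3, the comparison was repeated among regions of like score. All 13107 regions were split into 4 equal parts by mean H3K4me3 percentile over the 4 lists. That mean includes the KO lists under comparison, and the classes may still differ in rank within a part, so a role of score was not tested. In the lowest part, the median KO over WT ratio in doxorubicin was 0.724 at 827 bivalent regions and 1.03 at 2125 H3K27me3-free ones. In the part above it the ratios were 0.796 at 323 and 1.02 at 2757 regions. In the highest part they were 0.936 at 24 and 0.981 at 3191. The separation was present in each part and smallest in the highest. In mock cells it was smaller in the lowest part, at 0.749 against 0.811. In the highest part the mock medians turned, at 0.893 against 0.881, and the shares narrower by 1.5-fold did not, at 16.7% against 3.70%. Split by WT doxorubicin percentile, the mock medians in the highest part were 0.812 at 87 bivalent and 0.878 at 3104 H3K27me3-free regions. Split by KO doxorubicin percentile, they were 0.907 at 29 and 0.880 at 5210. The lowest part of that split held most bivalent regions, 1034, beside 1862 H3K27me3-free ones. There the mock medians were 0.760 and 0.795, and 30.1% and 25.1% were narrower by 1.5-fold, so that the mock separation was small. In doxorubicin the medians in that part were 0.729 and 1.003, and 36.65% and 8.11% were narrower.

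The narrowing went with the rank of H3K27me3. The bivalent regions were split into 4 groups of 317 by mean H3K27me3 percentile. From the lowest group to the highest, 14.2%, 21.8%, 38.8% and 52.05% were narrower by 1.5-fold in KO than in WT doxorubicin cells, beside the background of 6.78%. The median ratios were 0.867, 0.789, 0.729 and 0.659. In mock cells the counts were 55, 71, 97 and 119 (17.35%, 22.4%, 30.6% and 37.5%), beside a background of 11.2%. The groups also differed in H3K4me3 rank, with medians of 32.8, 30.5, 28.0 and 25.6. Their joined regions had median lengths of 1728, 1739, 1735 and 2015 bp. Among bivalent regions above the median in H3K4me3 percentile, the shares in doxorubicin were 10.0%, 19.2%, 32.5% and 44.4%. Among those below it they were 19.7%, 25%, 44.6% and 57.1%, so that the order of the groups was the same on both sides. Between the log2 KO over WT ratios of the lengths of the 2 marks, Pearson's r was -0.02 in mock and -0.03 in doxorubicin (n = 1268 regions that share the same libraries).

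The KO over WT comparisons in mock and in doxorubicin use no library in common. Of the 342 and 402 narrower bivalent regions, 195 were narrower in both, which is 57.02% of the first and 48.5% of the second list. Over all 13107 regions the overlap was 29.4% of the first and 48.4% of the second list, so that the second share was at its background. These 195 are 15.4% of bivalent regions, against a background of 3.28%. H3K4me3 was shorter in both KO libraries than in both WT libraries at 995 bivalent regions (78.5%), against 41.7% of all 13107, and longer in both at 14 (1.10%), against 6.13%. Across bivalent regions the log2 ratios of the 2 comparisons had Pearson's r of 0.46 and Spearman's rho of 0.39, and across H3K27me3-free regions 0.33 and 0.27. These are correlations over regions measured in the same 4 libraries, and regions are not replicates.

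**Figure D4:**
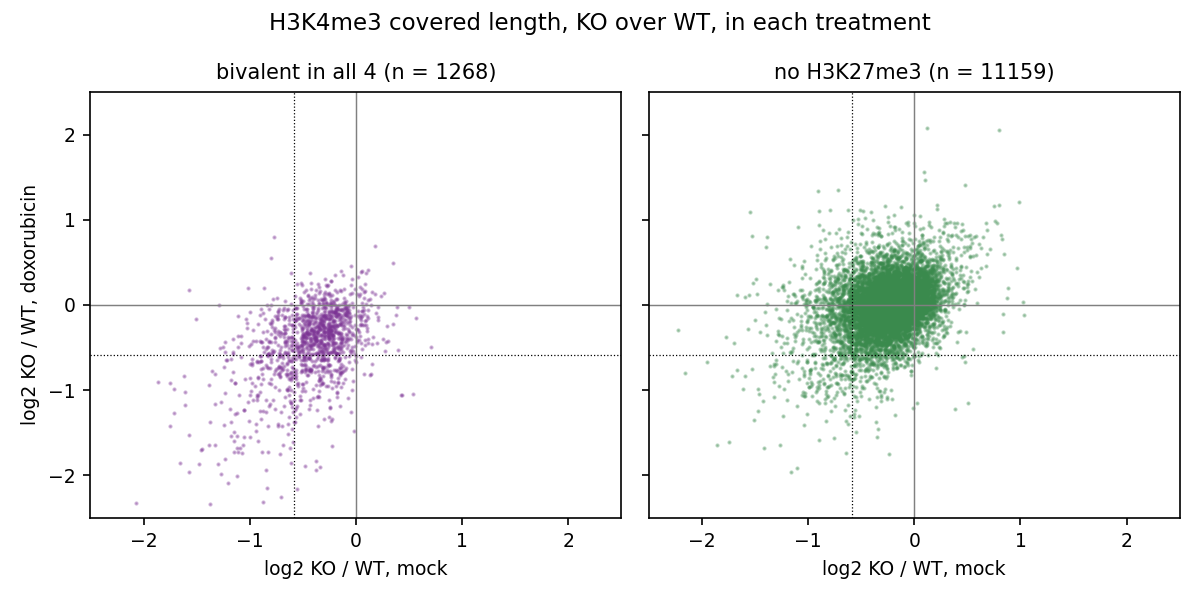
Log2 ratio of H3K4me3 covered length, KO over WT, in mock (horizontal) and doxorubicin-treated cells (vertical), one point per region; the left panel has the 1268 bivalent regions and the right panel the 11159 H3K27me3-free regions, with dotted lines at a 1.5-fold decrease. Of the bivalent regions 195 lie below both dotted lines, and of the H3K27me3-free regions 192.

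Single regions showed this pattern in the plainest form. At chr15:74346088-74350401 H3K4me3 covered 4037 and 4204 bp in WT and 961 and 839 bp in KO cells, a KO over WT ratio of 0.238 in mock and 0.1996 in doxorubicin. Both KO values lay far under both WT values, while H3K27me3 there measured 11139, 6922, 7436 and 6792 bp. At chr13:105651088-105655402 the H3K4me3 lengths were 2005, 4315, 775 and 854 bp, with the lowest ratio in doxorubicin at 0.198. WT doxorubicin alone was long there, and its H3K27me3 was the shortest of the 4 at 1328 bp, against 2531 to 5142 bp. At chr9:98854736-98858243 the H3K4me3 lengths were 3181, 3508, 873 and 1871 bp, under H3K27me3 of 16940 to 19892 bp. The H3K4me3 scores in KO mock and KO doxorubicin were 150.1 and 163.2 at the region on chromosome 15. They were 102.8 and 171.6 on chromosome 13, and 92.3 and 296.1 on chromosome 9. Regions wider in KO were few. At chr14:118872542-118873629 H3K4me3 covered 617, 996, 1006 and 706 bp, so that KO was above WT in mock and below it in doxorubicin. At chr7:133846877-133848945 it covered 1884, 1020, 1107 and 1779 bp, where the order of the genotypes also turned with the treatment. At chr8:3587163-3588518 the lengths were 915, 1091, 1356 and 980 bp, with the same turn as the first. At chr1:6348609-6350698 they were 1412, 1199, 1597 and 1939 bp, and both KO libraries were above both WT libraries.

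Doxorubicin was compared with mock in each genotype, again with 1 library per condition, and at bivalent regions the median H3K4me3 width differed little. The ratio of doxorubicin to mock had a median of 0.979 in WT and 0.959 in KO cells. H3K27me3-free regions had 0.912 in WT and 1.05 in KO cells, so that bivalent regions lay above them in one genotype and below them in the other. In WT cells 24 bivalent regions (1.89%) were wider by 1.5-fold, against a background of 0.671%, and 18 (1.42%) were narrower, against 3.37%. In KO cells 36 (2.84%) were wider, against 3.13%, and 72 (5.68%) were narrower, against 1.05%. Over the 4 groups by mean H3K27me3 percentile, from lowest to highest, the share narrower in KO was 1.89%, 2.84%, 5.68% and 12.3%. In WT it was 1.26%, 1.26%, 0.631% and 2.52%. After division by the median of all regions, 41 (3.23%, against 1.24% of all regions) were wider and 10 (0.789%, against 1.64%) narrower in WT cells. In KO cells 27 (2.13%, against 2.22%) were wider, near the background, and 98 (7.73%, against 1.49%) were narrower. Both doxorubicin libraries were shorter than both mock libraries at 97 bivalent regions (7.65%), against 14.6%, and longer at 34 (2.68%), against 5.79%. No test of the difference between genotypes was possible with 1 library per condition.

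The widest gain of H3K4me3 with doxorubicin in WT cells was at chr11:115835214-115838123, with 1069, 2910, 728 and 653 bp in the 4 conditions and 2.72 times the mock length. WT doxorubicin was the sole long library there. At chr4:129664435-129665859 the lengths were 657, 1425, 710 and 1082 bp, longer with doxorubicin in both genotypes. The narrowest in WT were both inside clusters described below, chr2:74505004-74509454 (4451, 2082, 3638 and 2577 bp) and chr6:52187307-52191183 (3877, 1850, 2877 and 1626 bp). In both, each doxorubicin library was shorter than each mock library. In KO cells the lowest ratios were at chr15:84276014-84277470, with 1327, 1339, 953 and 360 bp, and at chr13:55928714-55933167, with 4436, 2716, 3698 and 1407 bp. Their H3K4me3 scores in KO doxorubicin were 87.1 and 268.4. The highest ratio was at chr4:154229352-154231035, where 1672, 1149, 561 and 1298 bp were covered. KO mock was the short library, with a score of 90.7. The next highest was chr9:98854736-98858243, given above, where KO mock was also the shortest.

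H3K27me3 domains that held a bivalent region differed less in length between conditions than other domains did. Their median ratio was 0.911 for doxorubicin over mock in WT, 0.981 in KO, 0.916 for KO over WT in mock and 0.992 in doxorubicin. Domains without a bivalent region had 0.848, 0.974, 0.805 and 0.923. Of the 1259 domains with a bivalent region, 191 (15.2%) were narrower by 1.5-fold with doxorubicin in WT, against a background of 24.2%, and 30 were wider, against 4.31%. In KO cells 105 were narrower (8.34%, background 15.9%) and 64 were wider (5.08%, background 11.3%). For KO over WT in mock, 140 were narrower (11.1%, background 27.1%) and 40 wider (3.18%, background 3.57%). For KO over WT in doxorubicin, 79 were narrower (6.28%, background 17.6%) and 89 wider (7.07%, background 9.60%). These domains were also longer than the others and ranked higher, as given above, and the part of length and score in the result was not tested. H3K27me3 was shorter in both KO than in both WT libraries at 324 of the 1259 (25.7%, background 33.2%) and longer at 110 (8.74%, background 6.19%). It was shorter in both doxorubicin than in both mock libraries at 387 (30.7%, background 26.5%) and longer at 113 (8.98%, background 8.15%). Division by the median of all 6335 domains moves every domain alike, and reversed the balance of wider and narrower domains in 1 of the 4 comparisons, KO over WT in mock. There 86 were wider (6.83%, against 7.48% of all domains) and 50 narrower (3.97%, against 16.02%). With doxorubicin over mock, 78 were wider (6.20%, against 8.43%) and 122 narrower (9.69%, against 15.8%) in WT, and 74 (5.88%, against 12.2%) and 97 (7.70%, against 14.9%) in KO cells. For KO over WT in doxorubicin 120 were wider (9.53%, against 11.7%) and 59 narrower (4.69%, against 15.03%). No direction is therefore read for H3K27me3 in mock KO cells.

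At the domain on chr11:96208981-96220285, H3K27me3 covered 11305, 6687, 7555 and 1221 bp, the lowest ratio both for doxorubicin over mock in KO (0.162) and for KO over WT in doxorubicin (0.183). At chr2:91094517-91097805 the lengths were 2514, 2272, 3096 and 698 bp, again with KO doxorubicin the short library. At chr18:15306774-15313019 they were 1169, 3998, 4709 and 4755 bp, and WT mock was the short library. At chr1:140741464-140745052 KO mock was the shortest, with 3589, 2023, 902 and 2708 bp, as at chr1:84689030-84694267, with 4695, 3206, 1398 and 4487 bp. WT doxorubicin was the shortest at chr7:38551003-38556200, with 5087, 924, 3899 and 2436 bp, and at chr5:52950772-52959631, with 8211, 1597, 4674 and 4539 bp. In these 7 domains a single library gave the extreme ratio. WT doxorubicin was also the shortest at chr10:93295375-93300129, with 2909, 1219, 3025 and 4489 bp, and WT mock at chr7:116316674-116322065, with 1099, 2750, 4909 and 2401 bp. A pair of domains split by group. At chr13:31890172-31897658 the lengths were 2582, 6858, 2563 and 5990 bp, longer in both doxorubicin libraries, and at chr9:114751818-114755115 they were 1128, 887, 2801 and 2945 bp, longer in both KO libraries.

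Bivalent regions were spread over all autosomes and nearly missing from the X chromosome. Of 407 X-linked regions with H3K4me3 in all 4 lists, 1 was bivalent (0.246%, exact 95% binomial interval 0.00622 to 1.36). Elsewhere 1267 of 12700 were (9.98%, 9.46 to 10.5). Among the autosomes the share ran from 6.27% on chromosome 16 (25 of 399, interval 4.10 to 9.11) to 12.98% on chromosome 12 (61 of 470, 10.1 to 16.4). The intervals cover counting error over regions only, and neighbouring regions are not independent. H3K27me3 in any list was found at 11 of the 407 X-linked regions, and 25 of the 6335 H3K27me3 domains common to the 4 lists were on X. Each H3K4me3 list held 3 peaks on the Y chromosome, and the sex of the embryos is not given in the labels.

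Most bivalent regions stood alone. When neighbours within 100 kb were joined, 970 of 1268 had no bivalent neighbour, 105 pairs formed, and 88 regions (6.94%) fell into 24 clusters of 3 or more. H3K27me3-free regions, which are far more numerous, had 64.9% in such clusters. The median gap to the next bivalent region was 822 kb. The cluster with most bivalent regions was chr2:74505004-74602028, with 7 over 97.03 kb. H3K4me3 covered 19.3, 16.1, 14.5 and 11.98 kb of these 7 in the 4 conditions, and H3K27me3 covered 95.03, 82.6, 51.3 and 72.6 kb of the cluster. H3K4me3 was thus longer in each WT library than in each KO library, and H3K27me3 likewise. The stretch without H3K27me3 in KO mock began within the domain chr2:74549792-74567961 and ran beyond it. In that domain H3K27me3 measured 18170, 13149, 4980 and 6806 bp.

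**Figure D5:**
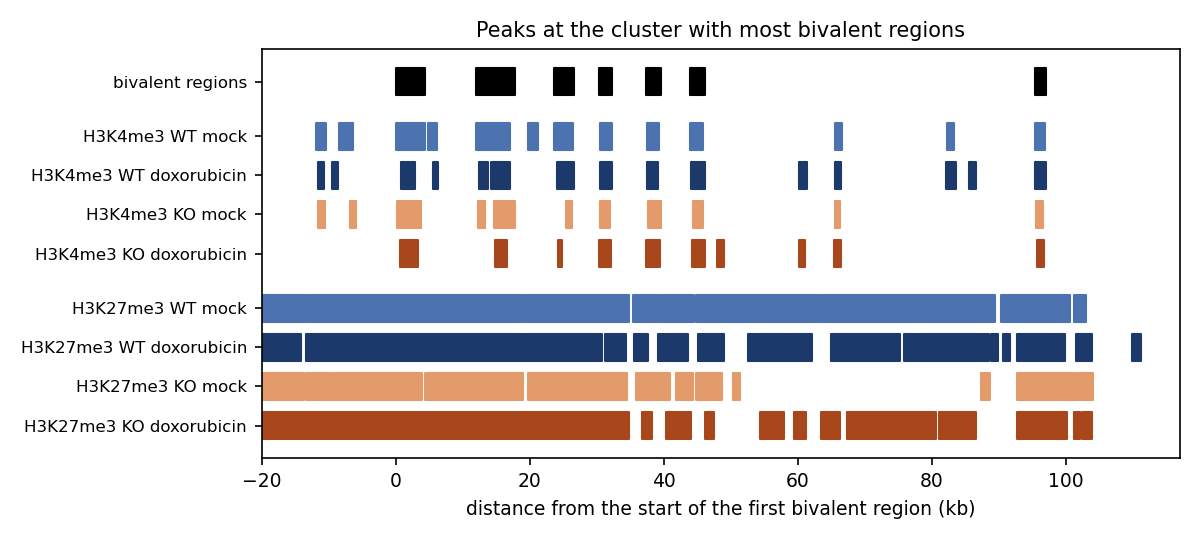
Peaks in the 8 lists at the cluster with 7 bivalent regions, by distance in kb from the start of the first one; bars are peaks, rows are lists and the top row marks the bivalent regions. H3K27me3 covers 95.03 kb of the cluster in WT mock and 51.3 kb in KO mock, where a stretch right of the middle has none.

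A further 3 clusters held 6 bivalent regions each, and 1 of those with 4 completes the largest 5. On chr6:52165586-52212614, over 47.03 kb, H3K4me3 covered 25.1, 18.7, 17.9 and 15.1 kb and H3K27me3 34.1, 40.02, 39.02 and 40.6 kb. WT mock had the longest H3K4me3 and the shortest H3K27me3 there. On chr11:118898092-118953007 H3K4me3 covered 12.6, 11.4, 10.1 and 10.3 kb and H3K27me3 34.4, 28.8, 28.8 and 29.8 kb, and none of the 6 regions was narrower by 1.5-fold in KO than in WT doxorubicin cells. On chr17:36220000-36368867 H3K4me3 was weaker, with median percentiles of 19.1, 28.3, 8.15 and 10.3, and covered 6.86, 7.47, 5.21 and 5.24 kb. H3K27me3 there covered 85.4, 68.3, 71.7 and 64.3 kb. On chr1:74817751-74902985, with 4 bivalent regions, H3K4me3 covered 5.22, 5.99, 4.06 and 3.33 kb and H3K27me3 63.2, 55.05, 56.05 and 53.6 kb. In all 5 clusters H3K4me3 was longer in each WT library than in each KO library. H3K27me3 had no such common order.

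The longest bivalent regions differed in the balance of the marks. The longest, chr11:23975604-23982678, had H3K4me3 of 7075, 6807, 6686 and 6550 bp at a score of 3100 in all 4 lists, beside H3K27me3 of 3807, 1085, 2234 and 3749 bp. Its H3K27me3 score in WT doxorubicin, 84.4, was close to the floor of 80. The fifth longest, chr4:48054592-48061416, was alike, with H3K4me3 of 5914 to 6419 bp and H3K27me3 of 2341 to 4885 bp. At chr13:78336581-78343570 H3K4me3 covered 6727, 6793, 4195 and 6082 bp, and KO mock was the short library. By contrast chr13:40823482-40830424 had H3K4me3 of 6879, 5507, 5337 and 3727 bp inside H3K27me3 of 18751 to 20179 bp. There H3K27me3 was at percentiles 98.5 to 99.6 and H3K4me3 at 30.3 to 74.5. At chr14:58689100-58696009 H3K4me3 covered 6548, 6424, 4997 and 4726 bp beside H3K27me3 of 7434 to 8615 bp.

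The 5 bivalent regions with the highest mean H3K27me3 percentile had shorter H3K4me3 in both KO than in both WT libraries. This order was common, at 78.5% of all bivalent regions and 41.7% of all 13107 regions. The first was chr7:56888671-56891022, with H3K27me3 peaks of 13543, 12144, 10738 and 7510 bp and H3K4me3 of 1665, 2321, 664 and 745 bp. Its H3K4me3 percentiles within the lists were 17.3, 31.8, 0.363 and 2.88. At chr19:44910164-44912513 H3K4me3 covered 1192, 2350, 919 and 661 bp, and at chr12:111515776-111517581 it covered 1806, 1505, 1001 and 630 bp. Both ranked low for H3K4me3 in every list, at or under percentile 28.6. At chr5:98613878-98616055 the lengths were 2178, 2025, 1684 and 1558 bp, and at chr11:4645469-4647635 they were 1924, 2162, 1219 and 1228 bp.

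The 5 regions strongest in both marks were chosen by their lowest percentile over the 8 lists, which asks for a high H3K4me3 score in the KO lists too. At chr9:32347208-32351380 H3K4me3 covered 4173, 3675, 3445 and 3583 bp, and no list placed either mark under percentile 81.3. At chr5:115878942-115881202 it covered 2150, 2168, 2109 and 2138 bp. At chr17:8992961-8997184 it covered 3714, 4082, 2930 and 3200 bp. Both KO libraries were still below both WT libraries at these 3, by little at the second. The same held at chr11:118944896-118949469, with 4539, 3409, 2838 and 3317 bp, and not at chr2:181192554-181195481, with 2875, 2716, 2367 and 2753 bp.

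The 5 weakest by the same measure had their lowest percentile for H3K4me3 in a KO library. The lowest scores were 80.2 and 80.4 in KO mock, at chr4:49857482-49858992 and chr9:21992325-21993299. They were 80.65, 80.7 and 80.7 in KO doxorubicin, at chr7:116153892-116155026, chr3:82930834-82933297 and chr1:137001020-137002720. These scores lie just over the floor of 80 below which no peak was listed. At the region on chromosome 3, H3K4me3 covered 2218, 2339, 1230 and 609 bp, under H3K27me3 of 5607 to 6276 bp. In all, 98 bivalent regions had an H3K4me3 score under 100 in at least 1 list, and 59 an H3K27me3 score under 100.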

How the data were processed

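The ChIP-seq peak lists of 8 libraries were used, 4 per mark; inputs were not used here. The submitters' processing notes list mm9, Bowtie 0.12.7 and MACS 1.4.2. Per the file headers, the deposited score of a peak is -10 times the log10 of its p-value, and no list held a score under 80. Deposited starts were taken to count from 0, and printed positions on mm9 count from 1. Covered length was summed over the peaks of a list inside a joined region. A 1.5-fold ratio of covered lengths was called wider or narrower, and backgrounds are over all regions of that mark present in 4 lists. The members, gene lists and rules were chosen with earlier results of these data known. Regions were named by fixed rules: the 5 longest, the 5 highest by mean H3K27me3 percentile, the 5 highest and the 5 lowest by their lowest percentile over 8 lists, the 5 largest clusters, the 2 most extreme width ratios per comparison, mark and direction, and those nearest the edge of the rule. Gene families, sequence composition and markers were planned and not analysed, because no mm9 genome or annotation was used, so no region is given a gene, exon or sequence. Alternatives were a score of at least 100, equal numbers of top peaks, other overlap, joining, fold and distance rules, the span in place of the covered length, the mean score and, chosen after seeing the data, ratios divided by the median of all regions. All 6 rules tested on simulated peaks gave back the number put in. The cluster rule was tested on a few set positions, and the others on lists built from 11118 well-spaced WT mock H3K4me3 peaks. Thin overlaps and regions with several peaks were not part of that test. Tables were made with pandas 2.3.3 and numpy 2.4.6 in Python 3.11.15, intervals (exact, Clopper-Pearson) with scipy 1.17.1, and plots with matplotlib 3.10.9.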

Additional observations from a re-analysis of the deposited data

Results flagged for a closer look

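Several covered-length ratios lay on opposite sides of 1 in the 2 genotypes or the 2 treatments; with 1 library per condition none of these differences was tested. For H3K4me3 with doxorubicin over mock, the median was 0.951 in WT and 1.03 in KO at regions with H3K27me3 in 1 to 3 lists, 0.912 and 1.05 at H3K27me3-free regions, and 0.919 and 1.05 over all 13107 regions. For KO over WT, H3K27me3-free regions had 0.865 in mock and 1.007 in doxorubicin. Bivalent regions had medians under 1 in all 4 comparisons as deposited. Divided by the median of all regions, their medians for doxorubicin over mock were 1.06 in WT and 0.916 in KO, on opposite sides of 1.

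The cluster on chr2:74505004-74602028 had H3K27me3 at 0.869 of its mock length with doxorubicin in WT and 1.41 in KO cells. The cluster on chr11:118898092-118953007 had H3K4me3 ratios of 0.902 and 1.01 and H3K27me3 ratios of 0.837 and 1.03 for doxorubicin over mock in WT and KO, and H3K27me3 ratios of 0.834 and 1.03 for KO over WT in mock and doxorubicin. At the cluster on chr1:74817751-74902985, H3K4me3 was 1.15 of the mock length with doxorubicin in WT and 0.820 in KO cells.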

How the results depend on the processing

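Of 110 alternative values over 38 results, 81 stayed within 1.5 times the count or within the interval of the median, and 29 moved further. The number of bivalent regions ran from 931 (H3K27me3 over at least 50% of the region) to 1844 (at least 3 of 4 lists of each mark). At a fold of 2, H3K4me3 was wider and narrower at 4 and 2 regions for doxorubicin over mock in WT, 3 and 15 in KO, 0 and 82 for KO over WT in mock, and 0 and 142 in doxorubicin. For H3K27me3 domains these were 9 and 69, 13 and 34, 11 and 24, and 29 and 20. The shares of all regions and domains past a fold of 2 are not given here, so these counts have no background. Joining H3K27me3 within 3 kb gave 60 wider domains with doxorubicin in WT, against 30 as deposited, and 216 narrower, against 191. The shares of all domains joined in this way are not given here, so these counts have no background either. The same joining placed H3K4me3 inside 1 peak at 918 regions in WT doxorubicin, and at 962, 984 and 969 in WT mock, KO mock and KO doxorubicin. With ratios divided by the median of all regions, a scaling chosen after seeing the data, H3K4me3 was wider at 41 and narrower at 10 with doxorubicin in WT, and wider at 9 and narrower at 161 for KO over WT in mock. On that scale 78 domains were wider and 122 narrower with doxorubicin in WT, and 86 wider and 50 narrower for KO over WT in mock. Regions in clusters of 3 or more numbered 57 at a score of at least 100, 49 with neighbours within 50 kb and 241 within 250 kb, against 88. The stricter folds and distances change these counts by construction, and for the other settings the cause was not tested. No paired analysis was possible because the labels give no replicate numbers and the results come from no test; a model adding genotype and treatment over the 4 libraries of a mark was not run. Depth is unknown, so a peak missing from a list, or a shorter one, may lie below what that library could detect.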
